A study of Homo sapiens with 8 samples.

Results

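The genes examined are the ligands and receptors of the TAM receptor family, *GAS6*, *PROS1*, *AXL*, *TYRO3* and *MERTK*, together with *GAS6-AS1*, a long noncoding RNA (lncRNA) whose exons lie across those of *GAS6* on the other strand. These 6 genes, of 57820 in the count table, were chosen by their place in the pathway and on the measured difference of *GAS6* and *GAS6-AS1* between SP and NSP cells, which was known when they were proposed. Their differences between the groups are given as a description without a p-value. All 6 had at least 1 count, and 3 of them (*GAS6*, *GAS6-AS1* and *AXL*) had enough counts to enter the fit across all genes.

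The study performed RNA-seq on J82 cells, an established human bladder cancer cell line, sorted by flow cytometry into side population (SP) cells, which pump out the DNA dye Hoechst and so stain weakly, and non-side population (NSP) cells, which retain it. Each population gave 4 libraries from the same unedited line, grown in the same medium with no drug named. No source used here says whether the replicates were separate cultures or sorts, so the spread between libraries may be partly technical, and J82 is 1 cell line. The deposited values are raw read counts per gene, whose sums ranged from 1431823 to 1697218 over the SP libraries and from 1489033 to 2073526 over the NSP libraries. These sums are a small part of the raw reads per sample that the paper states, and the reason was not tested.

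TAM receptors are receptor tyrosine kinases named after TYRO3, AXL and MERTK. Their ligands GAS6 and protein S (PROS1) are secreted proteins with a Gla domain that is carboxylated by a vitamin K-dependent enzyme and binds phosphatidylserine on apoptotic cells and membranes, so that ligand and lipid together activate the receptor. GAS6 binds all of the TAM receptors and AXL most tightly, protein S acts on TYRO3 and MERTK, and AXL is known in carcinomas for its association with mesenchymal cells and drug tolerance.

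Among the members, the levels listed under the ligand gene *GAS6* and its antisense lncRNA were lower in SP cells. Of the receptor genes, *AXL* had the highest listed level, and its groups overlapped. Few counts were listed under *TYRO3*, *PROS1* and *MERTK*. Levels are given as CPM, the count as a share of the library scaled by a common constant, with library sizes normalized by edgeR's TMM method. A gene is termed called where the quasi-likelihood test of edgeR gave a p-value, adjusted by Benjamini and Hochberg's method, below 0.05 and the fold change exceeded 1.3, in either direction. Of the 9309 genes tested, 1.63% were called higher and 2.03% were called lower in SP cells. Of the 3 members tested, 2 were called lower and none was called higher. Since *GAS6* and *GAS6-AS1* were chosen with this contrast known, nothing is read from that count. Of the tested genes, 5.05% had all SP libraries below all NSP libraries, as *GAS6* and *GAS6-AS1* did.

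Each value is the count listed under a gene's name, and the strand setting of the counting, which decides what that count holds, is not given in the sources used here. *GAPDH*, a glycolytic enzyme gene that cells transcribe strongly, had 13292 counts over the 8 libraries, while the lncRNA ENSG00000269968, which crosses 422 bp of its exons on the other strand, had 464412. If the setting was opposite to that of the libraries, the counts listed under *GAS6*, the receptors and every other gene here would be reads from the other strand across that gene's exons, and they would not measure its own transcript. The setting was not established here, so this limit applies to every level and difference given above and below, low counts included.

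*GAS6* (ENSG00000183087.10) lies on the minus strand of chromosome 13, at chr13:114523522-114567049 of GRCh37, the build that hg19 corresponds to. Its counts were 43, 35, 53 and 57 in SP libraries 1 to 4 and 126, 210, 122 and 86 in NSP libraries 1 to 4. The 4 SP libraries all lay below the 4 NSP libraries, with SP 4 the highest of the first and NSP 4 the lowest of the second. The level was 30.6 ± 7.63 (SP) and 75.5 ± 18.99 CPM (NSP, mean ± SD of 4 libraries). The fitted log2 fold change of SP over NSP was -1.31 with a standard error (SE) of 0.22, which is 2.48-fold lower in SP cells. Leaving out each library in turn gave -1.48 to -1.13, and *GAS6* was called in all 15 fits that did not sum genes.

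*GAS6-AS1* (ENSG00000233695.1) runs the other way at chr13:114518603-114548717. Its counts were 149, 145, 175 and 200 in SP libraries 1 to 4 and 615, 881, 630 and 356 in NSP libraries 1 to 4. Here too no SP library reached an NSP library, and NSP 4 was again the lowest of its group. The mean level was 109 ± 23.9 (SP) and 346 ± 82.6 CPM (NSP, mean ± SD of 4 libraries), and the log2 fold change was -1.66 (SE 0.20), or 3.17-fold lower in SP cells. It was also called in all 15 fits, and leaving out each library gave -1.83 to -1.55.

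**Figure D1:**
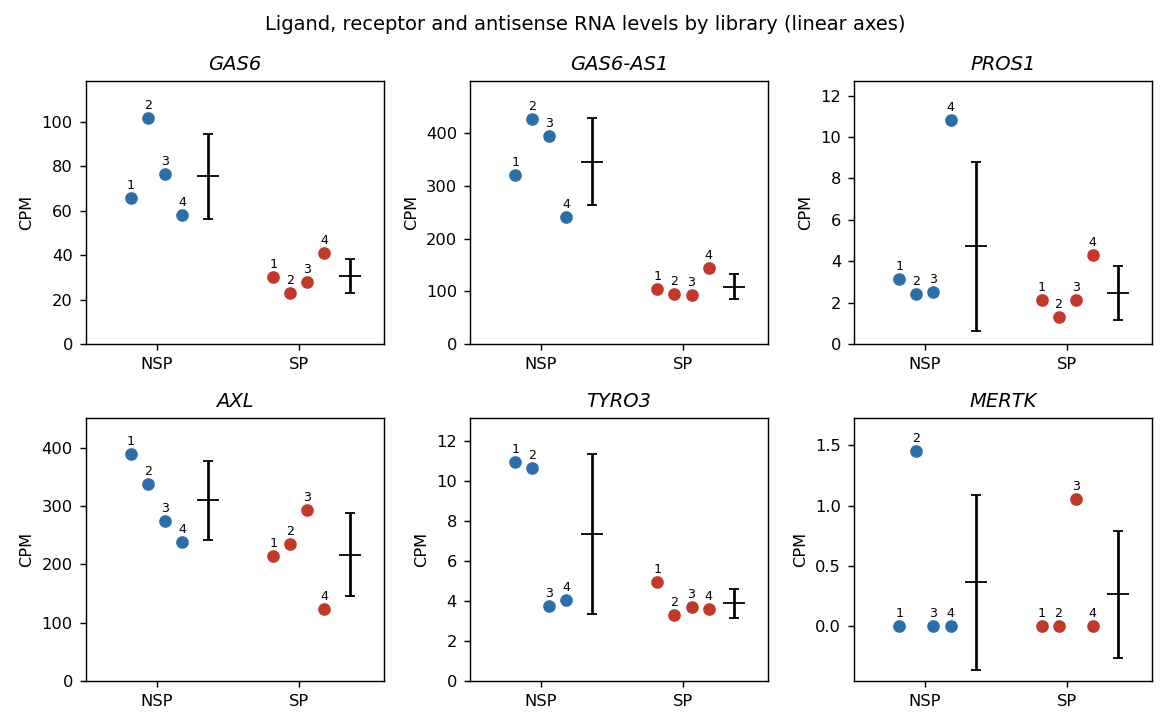
Level in CPM of each member in the NSP (blue) and SP (red) libraries, numbered by replicate, with the mean and SD of the 4 libraries as a black bar, on linear axes that differ between the genes. The groups are separate for *GAS6* and *GAS6-AS1* and overlap for *AXL*, and *PROS1*, *TYRO3* and *MERTK* lie below 12 CPM in every library.

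The exons of *GAS6* and *GAS6-AS1* cross in 4 segments of 421 bp in all, which is 7.0% of the exon length of *GAS6* and 5.87% of that of *GAS6-AS1*. A read from a crossing segment can be given to one gene or the other only by its strand. The coding exons of *GAS6* that hold 3 of the segments are shown because reads from them fit both genes, with the shared bases in capitals. They are read 5′ to 3′ on the minus strand of GRCh37, in the order of transcription, at chr13:114542701-114542823, chr13:114541042-114541164 and chr13:114537524-114537645, and belong to the part of the gene that encodes its EGF-like repeats.

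GAS6 exon, upstream: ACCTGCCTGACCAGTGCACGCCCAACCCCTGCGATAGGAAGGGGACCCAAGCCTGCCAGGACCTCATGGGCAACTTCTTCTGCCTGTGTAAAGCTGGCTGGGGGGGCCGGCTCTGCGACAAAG
GAS6 exon, middle: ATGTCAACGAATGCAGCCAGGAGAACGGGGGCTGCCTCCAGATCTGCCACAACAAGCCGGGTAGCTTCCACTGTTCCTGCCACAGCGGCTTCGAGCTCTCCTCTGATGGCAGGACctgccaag
GAS6 exon, downstream: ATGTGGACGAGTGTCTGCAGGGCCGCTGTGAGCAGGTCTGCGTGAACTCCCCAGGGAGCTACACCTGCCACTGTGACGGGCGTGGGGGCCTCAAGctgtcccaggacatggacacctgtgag

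All 123 bases of the upstream exon were shared, 115 bases of the middle exon and 95 bases of the downstream exon. The other shared segment, of 88 bp, lies in a longer annotated exon of *GAS6* of 1108 bp. Most of the exon sequence of either gene is not shared.

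**Figure D2:**
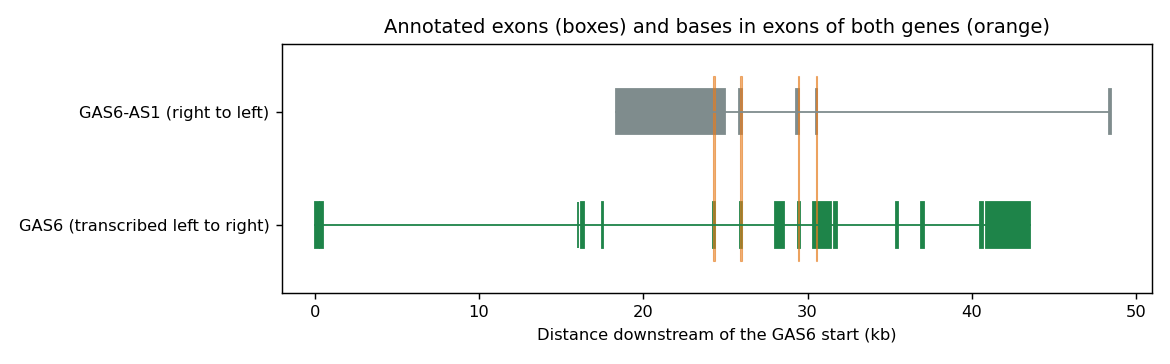
Annotated exons (boxes) of *GAS6* and *GAS6-AS1*, plotted by distance in kb downstream of the *GAS6* start, with the 4 segments that lie in exons of both genes in orange. The shared segments cover 421 bp in the middle of *GAS6*.

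*GAS6-AS1* had more counts than *GAS6* in every library. The ratio of its counts to those of *GAS6* was 3.30 to 4.14 in SP libraries and 4.14 to 5.16 in NSP libraries, with means of 3.60 ± 0.370 and 4.59 ± 0.508 (SD, n = 4 each). The SP library with the highest ratio and the NSP library with the lowest differed only in the third decimal, and the SP library was the higher. Across the annotation, a lncRNA and a coding gene on opposite strands with at least 50 bp of exon in common and at least 100 counts formed 2017 pairs, and in 72.24% of them the lncRNA had more counts per kb. The counts of *GAS6* and *GAS6-AS1* summed gave a log2 fold change of -1.59 (SE 0.20), which was called lower in SP cells. The sum removes the choice of gene only for reads from the shared 421 bp. Reads from the remaining exon sequence of either gene were still counted by the unstated setting, so the sum also depends on it.

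*AXL* (ENSG00000167601.7), the receptor that binds GAS6 most tightly, lies at chr19:41725128-41767671 on the plus strand. Its counts were 304, 358, 555 and 172 in SP libraries 1 to 4 and 747, 697, 437 and 351 in NSP libraries 1 to 4. SP 3, at 293 CPM, lay above both NSP 3, at 273 CPM, and NSP 4, at 238 CPM, so the groups overlapped. The level was 217 ± 70.3 (SP) and 310 ± 67.5 CPM (NSP, mean ± SD of 4 libraries). The log2 fold change was -0.51 (SE 0.22) and was not called. With the replicate number of the labels as a block it was -0.54 (SE 0.14) and was called, in a fit that called 5.89% of all tested genes higher and 7% lower in SP cells. Same-numbered libraries were lower in SP cells for 3 of the 4 numbers, and number 3 was the exception. Leaving out each library gave values of -0.69 to -0.33 without a call, with the value nearest 0 without SP 4, the library with the lowest *AXL* count.

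An exon of *AXL* also has a lncRNA across it, ENSG00000269652, at chr19:41727331-41727956 on the minus strand. The crossing covers 67 bp, which is 1.31% of the exon length of *AXL* and 23.43% of that of the lncRNA. The *AXL* exon, at chr19:41727785-41727961 on the plus strand of GRCh37, is shown because it is where reads of either gene coincide, with the shared bases in capitals. It encodes part of an immunoglobulin-like domain of the receptor.

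AXL exon: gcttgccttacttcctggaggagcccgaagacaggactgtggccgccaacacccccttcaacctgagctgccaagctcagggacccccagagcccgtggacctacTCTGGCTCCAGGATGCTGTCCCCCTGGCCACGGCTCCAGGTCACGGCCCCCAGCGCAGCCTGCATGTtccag

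The lncRNA had 348, 430, 540 and 208 counts in SP libraries 1 to 4 and 963, 946, 743 and 452 counts in NSP libraries 1 to 4. All SP libraries lay below all NSP libraries when scaled to CPM, at 241 ± 63.3 CPM and 433 ± 86.7 CPM (SD, n = 4 each). The log2 fold change was -0.84 (SE 0.20) and was called, but when single libraries were left out the call held in only 2 of the 8 fits, those without SP 3 and without NSP 4, with a range of -0.98 to -0.68. Its counts were 0.973 to 1.21 times those of *AXL* in SP libraries and 1.29 to 1.70 times in NSP libraries. The sum of *AXL* and the lncRNA had a log2 fold change of -0.69 (SE 0.21), which was not called.

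**Figure D3:**
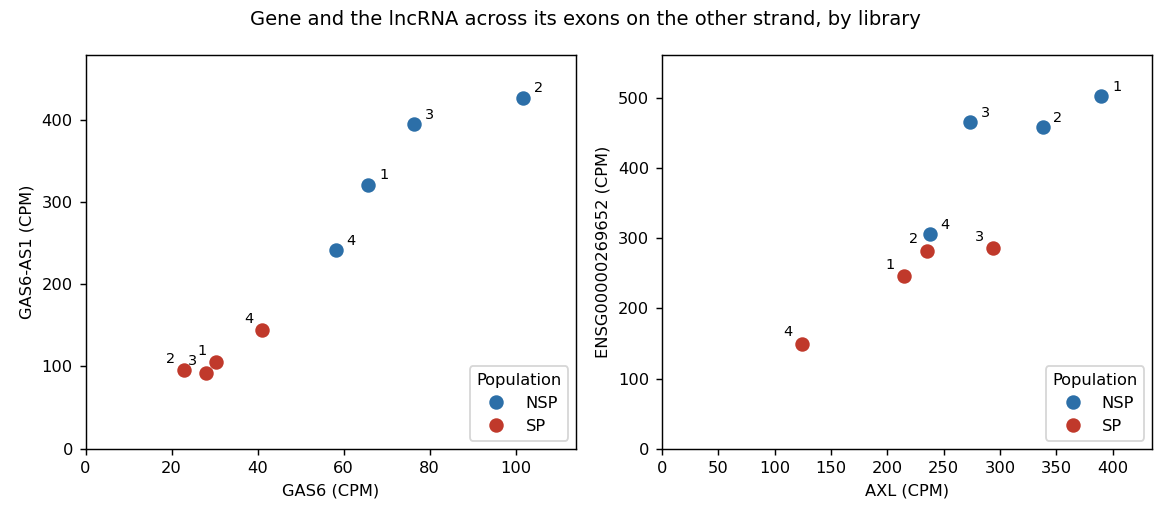
Level of the lncRNA against that of the gene on the other strand, in CPM, for *GAS6-AS1* and *GAS6* (left) and for ENSG00000269652 and *AXL* (right), 1 point per library numbered by replicate, NSP blue and SP red. The SP libraries lie apart at the lower left for *GAS6*, while SP 3 lies to the right of NSP 3 and NSP 4 for *AXL*.

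*TYRO3* (ENSG00000092445.7), at chr15:41849873-41875787 on the plus strand, had 7, 5, 7 and 5 counts in SP libraries 1 to 4 and 21, 22, 6 and 6 counts in NSP libraries 1 to 4. NSP 1 and NSP 2 stood above the other 6 libraries, whose counts differed little. The level was 3.88 ± 0.727 (SP) and 7.36 ± 3.99 CPM (NSP, mean ± SD of 4 libraries). It was left out of the fit by the filter on low counts, and without that filter its log2 fold change was -0.98 (SE 0.43) and was not called. Counting error alone is large at 5 to 22 counts.

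*PROS1* (ENSG00000184500.10), the gene of protein S, lies at chr3:93591895-93698847 on the minus strand and had 3, 2, 4 and 6 counts in SP libraries 1 to 4 and 6, 5, 4 and 16 counts in NSP libraries 1 to 4. NSP 4 held 16 of the 46 counts over all libraries. The level was 2.47 ± 1.29 (SP) and 4.72 ± 4.09 CPM (NSP, mean ± SD of 4 libraries), and a floor of 3 counts per library corresponds to 1.45 to 2.16 CPM. It was not tested, and without the filter the log2 fold change was -0.89 (SE 0.55) and was not called.

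*MERTK* (ENSG00000153208.12), at chr2:112656184-112787138 on the plus strand and known best as the receptor with which macrophages take up apoptotic cells, had 5 counts in all. SP 3 had 2 counts, NSP 2 had 3 counts and the other 6 libraries had none. A difference between the groups was not detectable with so few counts.

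Levels of different genes were compared per kb of annotated exon. *AXL* had the highest mean over the 8 libraries, 51.3 CPM per kb, then *GAS6-AS1* with 31.7, *GAS6* with 8.82, *PROS1* with 0.682, *TYRO3* with 0.522 and *MERTK* with 0.0759 CPM per kb. *AXL* exceeded *GAS6-AS1* in 7 of 8 libraries, and *GAS6-AS1* exceeded *GAS6* and *GAS6* exceeded *PROS1* in all 8. *PROS1* exceeded *TYRO3* in 4 of the 8 libraries, so their order is not separated. The exon lengths come from a newer annotation than the one used for counting, in which *GAS6-AS1* is 7169 bp and *TYRO3* 10770 bp long, so the order of neighbours rests on those lengths.

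Over the 8 libraries, *GAS6* and *GAS6-AS1* varied together, with a Pearson r of log2(CPM + 1) of 0.98, and an r of 0.90 for the deviations from the group means. For *GAS6* and *AXL*, r was 0.42 over all libraries and -0.36 for the deviations from the group means. The genes whose pattern was most like that of *GAS6* were *OGG1*, *GAS6-AS1* and the lncRNA ENSG00000261243, each with an r of 0.98, and none of these but *GAS6-AS1* was called between SP and NSP cells. For *GAS6-AS1* they were *GAS6* and ENSG00000261243, each with an r of 0.98, and *OGG1*, with 0.97. For *AXL* they were *DYNC1H1* with 0.99, *CDCA7L* with 0.97 and *TPM4* with 0.96. These are descriptions over 8 libraries that share their 2 groups and their scaling, picked as the highest over all other tested genes.

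Of the genes within 100 kb of *GAS6*, only *GAS6-AS1* had enough counts to be tested. *TMEM255B* lies on the other strand, with a gap of 3554 bp between its annotated span and that of *GAS6*. It had 0 to 2 counts in SP libraries and 5 to 20 counts in NSP libraries. *SWINGN*, a lncRNA, had 0 to 4 and 5 to 8 counts. Both were named after their values were seen, so their differences are given as a description without a p-value. In the fit without the filter on low counts, *TMEM255B* was called lower in SP cells and *SWINGN* was not. Nothing is read from these calls, since the genes were picked on the same counts. Near *AXL*, *TGFB1*, the gene of the cytokine TGF-β1, had 784 ± 37.2 (SP) and 1123 ± 155 CPM (NSP, mean ± SD of 4 libraries) with groups that did not overlap. Its log2 fold change of -0.52 (SE 0.15) was not called (adjusted p = 0.0637, edgeR's quasi-likelihood test). The adjacent *HNRNPUL1*, at -0.13, *CCDC97*, at 0.19, and *TMEM91*, at -0.16 on the log2 scale, were not called either. The exons of *TGFB1*, *HNRNPUL1*, *CCDC97* and *TMEM91* each overlap those of a gene on the other strand, and its part in their counts was not tested.

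The 250 bases before the *GAS6* start are shown because *GAS6* was the ligand gene that differed. They lie at chr13:113864077-113864326 on the minus strand of GRCh38.p14 and were taken from RefSeq, which had promoters for all of the members except *GAS6-AS1*. Capitals mark GC boxes, GGGCGG on either strand.

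GAS6 promoter: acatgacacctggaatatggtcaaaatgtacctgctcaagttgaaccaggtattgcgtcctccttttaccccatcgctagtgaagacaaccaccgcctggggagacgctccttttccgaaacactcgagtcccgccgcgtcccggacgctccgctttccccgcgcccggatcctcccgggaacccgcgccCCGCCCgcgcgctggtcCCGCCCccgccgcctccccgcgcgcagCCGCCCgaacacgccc

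GC boxes were found 3 times in this window, and 42.64% of all 35116 promoter windows of the same length held at least 1. The other members with a promoter also had them. There were 4 in the *MERTK* window, 2 in that of *PROS1*, 3 in the first *TYRO3* window and 2 in the first *AXL* window. The forkhead core TGTTTA was found on neither strand of the windows of *GAS6*, *AXL*, *TYRO3* and *MERTK* and once in that of *PROS1*, and 10.99% of all windows held it. The AP-1 motif TGANTCA was found in a *TYRO3* window and in 6.57% of all windows. The TEAD motif GGAATG was found in the second *AXL* window and in 11.89% of all windows. The CRE core TGACG was found in the *PROS1* window, the first *TYRO3* window and the second *AXL* window, and in 21.22% of all windows.

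The other genes of the pathway were taken as 8 lists with 81 genes, of which 51 were tested. The lists were chosen with earlier results of these data known. The adjusted p-values given for their genes below are therefore a description and not an independent test. In SP cells 1 of these rose and 3 fell, which is 1.96% and 5.88% of the tested genes, beside 1.63% and 2.03% of all tested genes. Their median log2 fold change was -0.06, beside 0.01 over all tested genes.

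The genes around ligand production had no calls. *GGCX*, the enzyme that carboxylates the Gla domain of GAS6 and protein S, had 263 ± 48.2 (SP) and 258 ± 39.4 CPM (NSP, mean ± SD of 4 libraries), with a log2 fold change of 0.03. Its exons overlap those of *MAT2A* on the other strand by 562 bp. *MAT2A* had 246 counts beside 3456 for *GGCX*, and which of the 2 genes the *GGCX* counts come from was not tested. Of the 6 genes of carboxylation and the vitamin K cycle, 5 were tested. None of the 12 other genes of vitamin K-dependent Gla proteins, such as clotting factors, had enough counts for the test, and 9 had at least 1 count. *LGALS3* (galectin-3), also reported as a TAM ligand and the only one of 3 such genes that was tested, had a log2 fold change of 0.59 (SE 0.33) and was not called.

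Of the 9 genes of receptor shedding and cleavage, 8 were tested. *TIMP3*, an inhibitor of metalloproteinases including the sheddases ADAM10 and ADAM17, fell. Its counts were 59, 63, 83 and 109 in SP libraries 1 to 4 and 179, 208, 198 and 193 in NSP libraries 1 to 4. The groups did not overlap. The log2 fold change was -1.13 (SE 0.21, adjusted p = 0.00834, edgeR quasi-likelihood with Benjamini-Hochberg adjustment), and the gene was called in all 15 fits. The sheddase genes themselves were not called, with log2 fold changes of -0.20 for *ADAM10* and 0.10 for *ADAM17*.

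None of the 23 tested genes of adaptors and downstream signalling was called, of 29 in the list. *MAP2K2*, a kinase of the MAPK cascade and the gene with the highest level in the list, had 232 ± 8.94 (SP) and 192 ± 19.3 CPM (NSP, mean ± SD of 4 libraries) and a log2 fold change of 0.28. With the replicate block, *MTOR*, the kinase of the mTOR complexes, was called higher in SP cells, at a log2 fold change of 0.50 (adjusted p = 0.0184), and *NCK2*, an adaptor, was called lower, at -0.61 (adjusted p = 0.0326, both by edgeR's quasi-likelihood test). Reads of *NCK2* share exon sequence with the lncRNA ENSG00000235522 on the other strand, which was called lower at -0.69. The exons of *MTOR* overlap those of the lncRNA *MTOR-AS1* by 220 bp and those of *ANGPTL7* by 151 bp. *MTOR-AS1* had 665 counts beside 901 for *MTOR* and was not called, and *ANGPTL7* had 3 counts.

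Among 6 negative regulators, of which 3 were tested, *SOCS1* rose in SP cells. SOCS1 is an inhibitor of cytokine and JAK-STAT signalling that is induced through TAM receptors in immune cells. Its counts were 26, 54, 70 and 47 in SP libraries 1 to 4 and 18, 17, 17 and 15 in NSP libraries 1 to 4, with no overlap after scaling and SP 1 the lowest SP library. The level was 31.2 ± 8.65 (SP) and 9.60 ± 1.05 CPM (NSP, mean ± SD of 4 libraries), and the log2 fold change was 1.71 (SE 0.26, adjusted p = 0.0023, edgeR's quasi-likelihood test). It was called in all 15 fits. *RANBP9*, the list's gene with the highest level, had a log2 fold change of -0.09 and was not called.

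Phosphatidylserine is the lipid to which both ligands bind. Of the 6 genes that set its exposure on the cell surface, 5 were tested and none was called, with *PLSCR1*, a scramblase, at 41.1 ± 6.30 (SP) and 41.4 ± 10.2 CPM (NSP, mean ± SD of 4 libraries). Of 10 genes of other phosphatidylserine receptors and bridging proteins, 6 were tested, and 2 fell.

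*STAB1*, a scavenger receptor for phosphatidylserine, had 36, 38, 45 and 46 counts in SP libraries 1 to 4 and 192, 169, 100 and 124 counts in NSP libraries 1 to 4. Its log2 fold change was -1.62 (SE 0.19, adjusted p = 4.06e-04, edgeR's quasi-likelihood test), and it was called in all 15 fits. Its exons overlap those of *NT5DC2* on the other strand by 111 bp, and *NT5DC2*, with 388 counts beside 750 for *STAB1*, was also called lower, at -1.26. *ITGB5*, the β5 integrin chain that pairs with the αV chain and, through the bridging protein MFGE8, binds phosphatidylserine, had 178 ± 38.1 (SP) and 287 ± 38.3 CPM (NSP, mean ± SD of 4 libraries). Its log2 fold change was -0.69 (SE 0.17, adjusted p = 0.033, edgeR's quasi-likelihood test). The call held in only 2 of the 8 fits with a library left out, those without SP 4 and without NSP 3, and adjusted p was 0.0161 to 0.119 over all 8. *MFGE8* itself had a log2 fold change of -1.42 (SE 0.38) that was not called (adjusted p = 0.052, edgeR's quasi-likelihood test). It was called with the replicate block, with an adjusted p of 2.15e-04, and in 5 of the other 13 alternatives. With the replicate block, 2 genes of the pathway lists were called higher and 5 were called lower, which is 3.92% and 9.8% of those tested, beside 5.89% and 7% of all tested genes in the same fit.

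**Figure D4:**
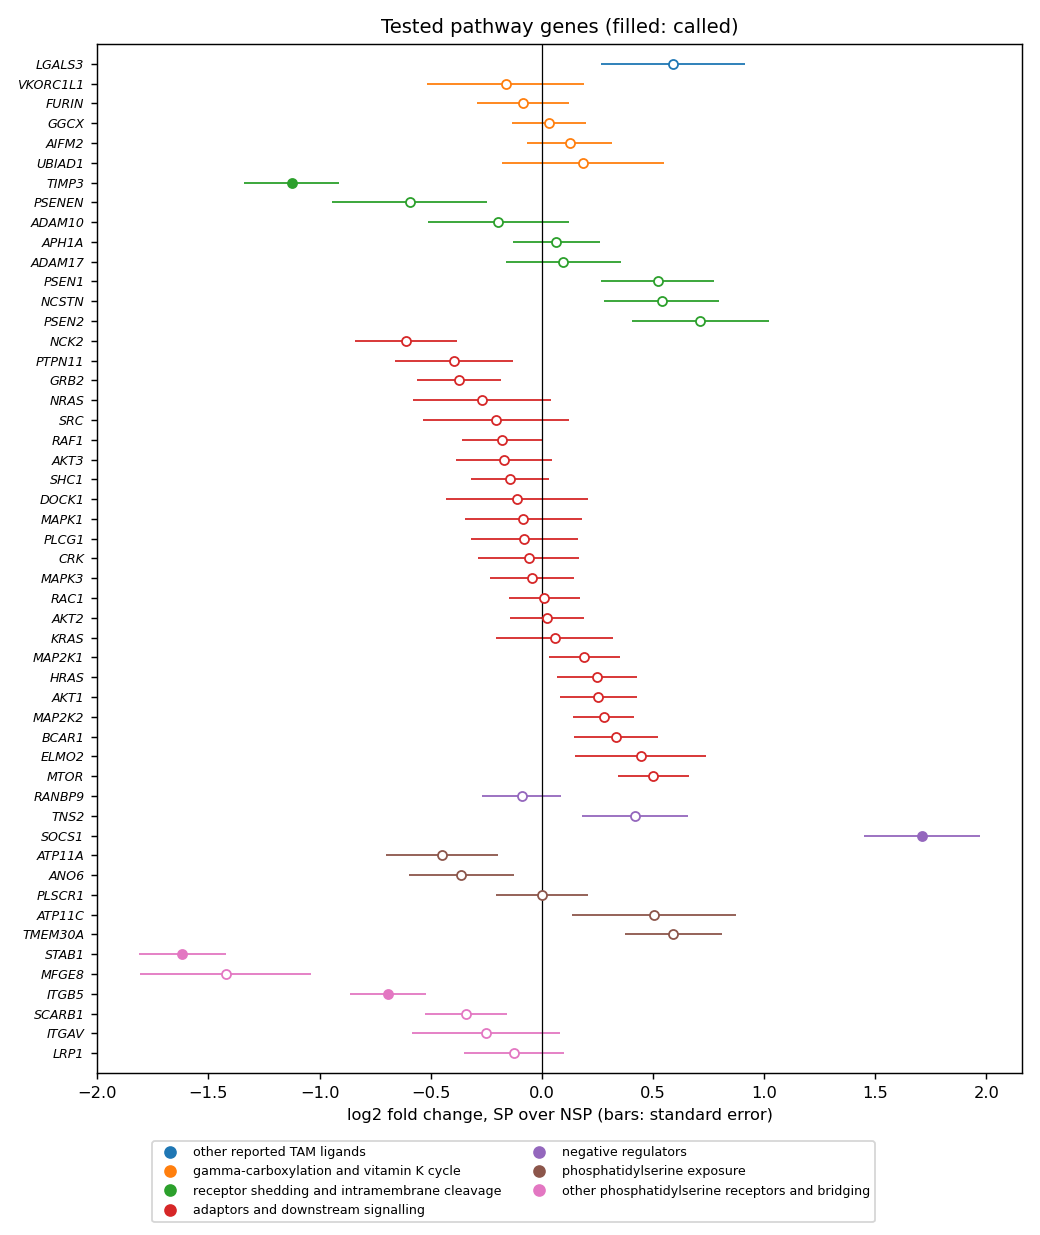
Log2 fold change of SP over NSP, with standard errors as bars, for the 51 tested pathway genes, coloured by list, with filled points for called genes. *SOCS1* lies to the right at 1.71, *STAB1*, *TIMP3* and *ITGB5* are the filled points on the left, and the signalling genes in red lie between -0.61 and 0.50.

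Markers of other cell types and states moved with the groups in part, and the part of these differences in the values of *GAS6* and the receptors was not tested. The macrophage and leukocyte markers *PTPRC*, *CD163* and *C1QA* were at 0 in every library, and the summed level of the list of 7 was 47.6 to 95.9 CPM in SP and 23.1 to 58.9 CPM in NSP libraries, most of it from *CD14*. The summed level of the 4 mesenchymal markers was 277 to 439 CPM in SP and 490 to 856 CPM in NSP libraries, of which *FN1* was called lower in SP cells. The 6 epithelial markers summed to 3332 to 4643 CPM in SP and 4548 to 6260 CPM in NSP libraries, with *KRT7* called lower, *EPCAM* at 3 counts in all and *CDH1* at 24. Of the 6 markers of urothelial differentiation, *UPK3A* and *KRT20* were at 0 in every library. *UPK2* had 253 counts in all and was not called, at a log2 fold change of 0.22. *GATA3* had 34 counts in all, *UPK1B* 13 and *UPK1A* 1. *ABCB1*, a drug efflux pump that can extrude Hoechst, had 29.7 ± 4.65 (SP) and 3.97 ± 3.16 CPM (NSP, mean ± SD of 4 libraries). In RNA from sorted cells, fewer cells that express a gene and less RNA of it per cell cannot be told apart.

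**Figure D5:**
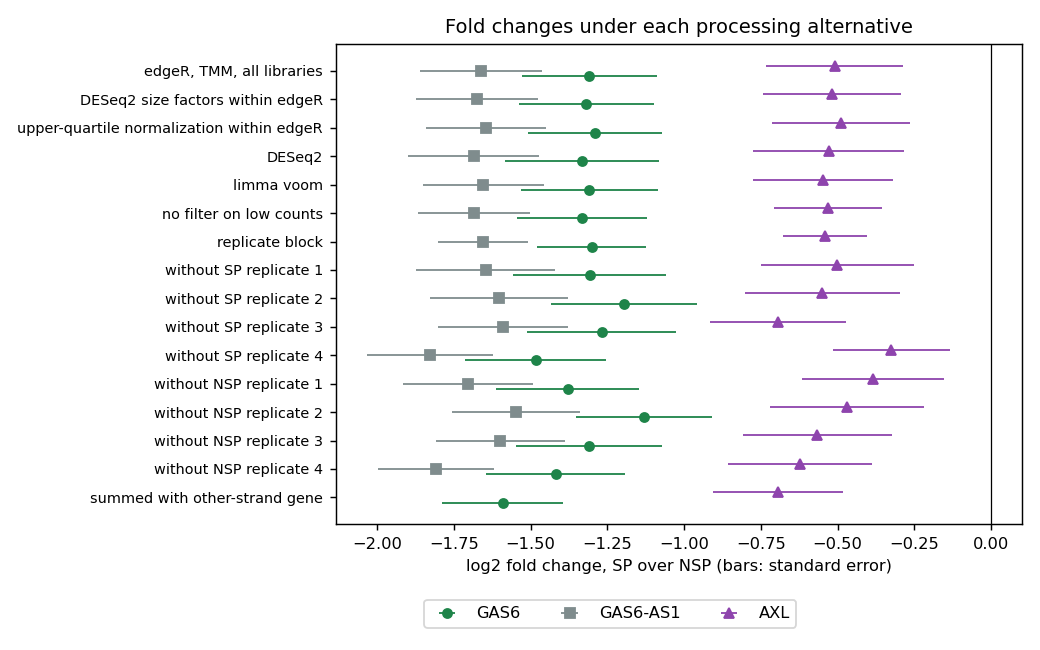
Log2 fold change of SP over NSP with standard errors for *GAS6*, *GAS6-AS1* and *AXL* under each processing alternative, with the values of all libraries at the top. Every value lies below 0, and those of *GAS6* and *GAS6-AS1* lie below those of *AXL* in each setting.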

How the data were processed

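RNA-seq of SP and NSP cells of J82 (4 libraries each) was analysed from the raw counts per gene that the authors deposited, without normalization. They aligned single-end reads to hg19 with STAR and counted on gencode version 19 with featureCounts. Versions, the strand setting and how multiply assigned reads were handled are not given in the sources used here. Library and replicate number came from the column names. Symbols, positions and exon lengths were joined by gene identifier from GENCODE mapped to GRCh37, a newer release, for 55538 genes (96.1%).

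The test was edgeR's quasi-likelihood F test (glmQLFit, then glmQLFTest; edgeR 4.0.16, R 4.3.3) with TMM and no covariate, on the 9309 genes that filterByExpr kept at min.count 10 and min.total.count 15. The procedure was tested on simulated data. CPM is the count divided by the total count times the TMM factor. The SE is the size of the log2 fold change divided by the square root of F. Depth limits precision, and a floor of 3 counts is 1.45 to 2.16 CPM and covers counting error only. Figures were drawn with matplotlib 3.10.9.

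The members, the pathway and marker lists and the tests were chosen with earlier results of these data known. The named genes are the members, genes across their exons, called pathway genes and the highest gene of each list, tested genes within 100 kb of *GAS6* or *AXL*, and the 3 genes most like each tested member; other genes were picked with their values in view. Deviations of same-numbered SP and NSP libraries from their group means had correlations of 0.38, 0.20, 0.32 and 0.32. Libraries of different numbers were not compared one by one. The deviations cancel within each group, so with positive covariances for the same numbers, those between different numbers are negative on average. The labels do not say what the numbers stand for, so whether they mark paired cultures or sorts was not established. The main fit left the number out, and an alternative used it as a block. The alternatives were a replicate block, size factors of DESeq2 in the edgeR fit, upper-quartile scaling, DESeq2 1.42.0, limma voom (3.58.1), no filter, each library left out, and sums with the gene on the other strand. Replicates differed by more than sampling noise. The other experiments of the study were not analysed here.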

Additional observations from a re-analysis of the deposited data

Results flagged for a closer look

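In groups of 4 libraries, a library was looked at again where its gap to the nearest other library, as a share of the group's range, exceeded Dixon's critical value. This was so in 5 of 22 groups. About 1.1 are expected by chance for normally distributed values, which counts as low as those of *MERTK* and *PROS1* are not. No excess is therefore read from this number. For *PROS1* in NSP cells the gap of NSP 4 was 0.916 of the range, at 16 counts against 4 to 6. For *MERTK* the gap was 1 in both groups, since SP 3 with 2 counts and NSP 2 with 3 counts were the only libraries with a count. For *TIMP3* in SP cells the gap of SP 4 was 0.932, at 78.5 CPM, and for *SOCS1* in SP cells that of SP 1 was 0.831, at 18.3 CPM. *SOCS1* lies at the limit: with the counts of the tested genes as the CPM denominator, an alternative chosen after seeing the data, its gap was 0.828 and that of *STAB1* in SP cells (SP 4) was 0.834, while with all counts *SOCS1* was above the critical value and *STAB1* was not.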

How the results depend on the processing

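*GAS6* and *GAS6-AS1* were lower in SP cells and called under every alternative run. The replicate block, by the numbers in the library names, changed the call of *AXL* (-0.54, called). It raised the genes called higher from 152 to 548 and those called lower from 189 to 652. It also gave 2 pathway genes higher and 5 lower in place of 1 and 3. Without the filter on low counts, 303 genes were called higher and 381 lower. Leaving out each library gave 69 to 164 genes higher and 89 to 181 lower. The counts moved by over 1.5 times without NSP 2 (69 higher, 89 lower), without SP 2 (91 and 110) and, for genes called higher, without NSP 1 (93). The cause was not tested. The median log2 fold change of all genes stayed between 0.00 and 0.05 under the alternatives. With the counts of the tested genes as the CPM denominator, chosen after seeing the data, 463 genes were lower in every SP library than in any NSP library, in place of 470. *TYRO3* and *PROS1* had a value only in DESeq2 (-0.97 and -0.94, neither called) and without the filter, and *MERTK*, with 5 counts, only without it (-0.35, SE 1.33). No gene lay across exons of *TYRO3*, *PROS1* or *MERTK* on the other strand, so no sum was formed. These 3 genes had too few counts for the test, and whether depth or the strand setting sets their counts was not tested.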
